A study of Homo sapiens with 9 samples.

Results

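TC71 cells, a human Ewing sarcoma line, were compared between metastases of 2 sites in mice: 4 samples of tumour cells recovered from bone marrow and 4 recovered from lung, 8 of the series' 9 samples. All genes of the count table were taken, 34922 of its 34934 rows; the other 12 rows name reporter and drug-selection genes of vectors. Every mouse was of the immunodeficient NSG strain, and 100 TC71 cells mixed into Matrigel and phosphate-buffered saline had been injected under the skin of the flank, so the tumour cells had spread from that site. When a tumour measured 1.5 cm across, Ewing sarcoma cells were collected from the organs by flow cytometry. The 9th sample, from the primary tumour, entered only 1 alternative fit. Both groups carry the same line without a stated treatment or genotype change and differ in the organ of recovery. The labels give neither the sort markers nor the age of the mice, and no label ties a sample to a mouse; p-values therefore measure the spread among these samples, some of which may share an animal. NSG mice lack T, B and natural killer cells and keep other blood cells and stroma of their own.

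Ewing sarcoma is a tumour of bone and soft tissue of the young that is driven by a fusion of EWSR1 with an ETS factor, most often FLI1. Lung and bone marrow are its main sites of spread. Cells in a tumour or a metastasis differ in how fast they divide, how much oxygen and lipid reaches them and which stress signals they receive, and each of these states has a well-known set of genes: mitotic kinesins and kinases in dividing cells, targets of the hypoxia-inducible factor HIF in low oxygen, enzymes of the mevalonate pathway when cells make cholesterol, and immediate-early transcription factors within minutes of a growth or stress signal. The genes were therefore grouped into 65 function lists and read across the whole transcriptome.

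Bone marrow samples held 14158113 to 17910622 estimated counts and lung samples 11549684 to 13218631, and 12601 genes passed the filter on low counts. The Spearman correlation over tested genes was 0.857 to 0.900 between bone marrow samples, 0.779 to 0.839 between lung samples and 0.765 to 0.860 between sites. Lung replicate 3 stood apart, with a median correlation of 0.779 with the other samples and 4.99% of tested genes without counts. Bone marrow replicate 1 differed from the other bone marrow samples in the share of counts in its 100 most abundant genes (28.9%, against 21.5 to 23.2%) and in reads assigned to no feature (6.97%, against 3.08 to 4.39%). Its share of protein-coding reads, 45.5%, lay among those of lung (44.5 to 46.4%) and below the other bone marrow samples (50.8 to 52.2%). Results are therefore given with all 8 samples and without bone marrow replicate 1. Of 18 library measures, 4 separated the sites completely: total counts, human reads (78.6 ± 0.688% against 75.3 ± 1.97%), reads not aligned (19.4 ± 0.652% against 22.2 ± 1.83%) and mitochondrial ribosomal RNA reads (0.158 ± 0.056% against 0.432 ± 0.0656%; mean ± SD, n = 4 each). A two-sided exact permutation test gave p = 0.0286 for each, the lowest value possible with 4 against 4, and an adjusted p of 0.129 over the 18 measures. Their part in the results below was not tested.

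Most genes differed little between the sites compared with the spread within a site. edgeR's quasi-likelihood test with Benjamini-Hochberg adjustment called 1 of 12601 genes (0.00794%), XPO5. A positive log2 fold change means a higher level in bone marrow. Fold changes were above 0 for 6256 genes (49.6%), and 5995 of 12590 (47.6%) without bone marrow replicate 1. The median over all tested genes was -0.0045, and -0.05 without that replicate. The biological coefficient of variation, which measures how far a gene varies between samples of a site beyond counting error, was 0.770. At an unadjusted p below 0.05, 640 genes (5.08%) were higher in bone marrow and 493 (3.91%) in lung, so 56.5% of these lay on the bone marrow side; with samples scaled by library size alone that share was 44.7%.

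DESeq2, run on the same counts as an alternative test, called 303 of the 12198 genes to which it gave an adjusted p. Of these, 183 (1.5%) were higher in bone marrow and 120 (0.984%) in lung. Each of the 303 also had an edgeR p below 0.05 unadjusted in the same direction, and 277 (91.4%) had no overlap between the 4 and 4 samples. Both checks use the same counts as the calls and so add no separate evidence. Over all tested genes, 436 (3.46%) did not overlap and were higher in bone marrow, and 449 (3.56%) did not overlap and were higher in lung. Without bone marrow replicate 1, DESeq2 called 286 of 11424 genes (2.5%) on the bone marrow side and 167 (1.46%) on the lung side. The calls shared by both runs were 243, which is 80.2% of the 303 and 53.6% of the 453. No call changed sign when that sample was left out. Below, "called" means a DESeq2 adjusted p below 0.05 over all genes, unless edgeR is named, and each called gene other than XPO5 had an edgeR adjusted p above 0.05.

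**Figure D1:**
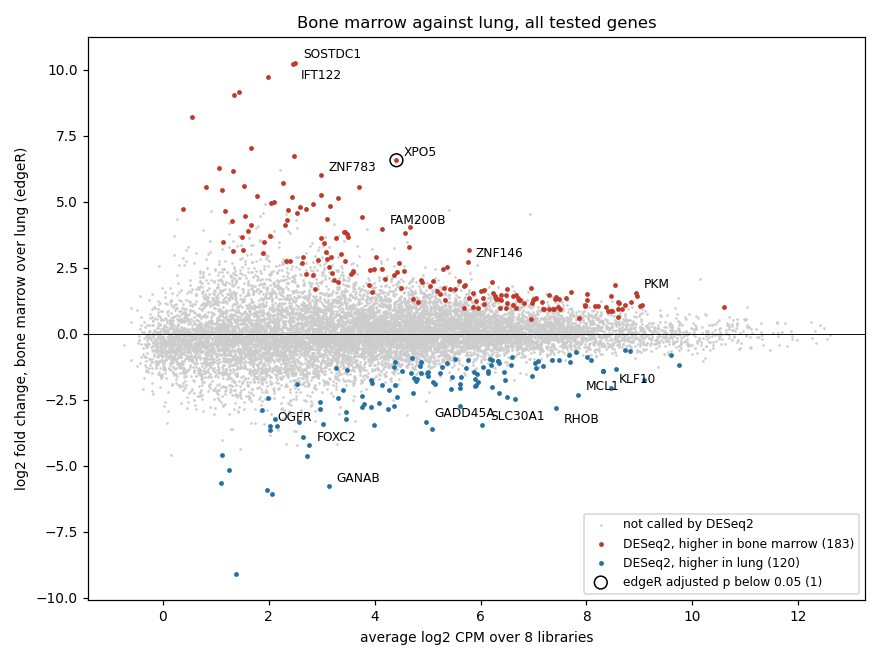
Log2 fold change of bone marrow over lung (edgeR) against average log2 CPM for the 12601 tested genes. Red points are the 183 genes that DESeq2 called higher in bone marrow, blue the 120 called higher in lung, and the circle marks XPO5, the gene called by edgeR; calls with a small fold change lie among abundant genes.

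XPO5 carries hairpin precursors of microRNAs out of the nucleus. The gene lies at chr6:43522334-43576038 (GRCh38). Its level in CPM (counts relative to the TMM-scaled library total) was 24.5, 63.6, 47.1 and 32.3 in bone marrow replicates 1 to 4 and 0.254, 0.28, 0.75 and 0.439 in lung replicates 1 to 4. The lowest bone marrow sample, replicate 1, was above every lung sample by a wide margin. The log2 fold change was 6.58 ± 0.64 (± standard error) with an edgeR adjusted p of 0.0296 and a DESeq2 adjusted p of 2.02e-26. Without bone marrow replicate 1 the log2 fold change was 6.77 and the edgeR adjusted p 0.0854, and with any other single library left out it was 0.106 to 0.207, except without lung replicate 3, where edgeR called 4 genes, XPO5 among them.

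The other genes with the smallest p on the bone marrow side were of mixed function. ZNF783 and ZNF146 encode zinc finger proteins. ZNF783 stood at 12.4, 20.8, 6.57 and 21.8 CPM in bone marrow against 0.0848, 0.07, 0.25 and 0.512 CPM in lung, a log2 difference of 6.01 ± 0.92 with every bone marrow sample above every lung sample. ZNF146 (chr19:36214723-36238768) stood at 50.7, 98.5, 129 and 100.2 CPM against 8.65, 21.8, 14.5 and 12.2 CPM, again without overlap, and bone marrow replicate 1 was the lowest of its group. The log2 fold change of ZNF146 was 2.72 ± 0.42 (edgeR adjusted p 0.111, DESeq2 adjusted p 8.06e-08). FAM200B followed the same pattern at 32.8 ± 15.7 CPM in bone marrow against 2.08 ± 0.824 CPM in lung (mean ± SD, n = 4 each).

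Abundant genes among them differed by smaller and more even amounts. PKM, the pyruvate kinase that ends glycolysis, measured 601, 587, 1016 and 720.0 CPM in bone marrow against 326, 177, 296 and 196 CPM in lung. Its samples did not overlap, and the log2 fold change was 1.55 ± 0.28 (edgeR adjusted p 0.165, DESeq2 adjusted p 0.00021). API5, an inhibitor of apoptosis, measured 241, 345, 421 and 462 CPM against 166, 125, 135 and 173 CPM, with bone marrow replicate 1 nearest to lung. PRPS1, which makes the ribose donor for nucleotide synthesis, averaged 242 ± 57.3 CPM against 97.7 ± 22.9 CPM. VPS26A belongs to the retromer, which returns receptors from endosomes to the Golgi, and averaged 385 ± 68 against 187 ± 25.3 CPM. DPY19L4 (150.5 ± 26.5 against 54 ± 3.28 CPM) and ALG10B (151 ± 21.8 against 61.8 ± 5.91 CPM) were also higher in each bone marrow sample than in any lung sample. ALG10B, a glucosyltransferase of N-glycan assembly, has the near-identical copy ALG10, between which the counting could split reads, so its value is uncertain.

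On the lung side the smallest p belonged to MCL1, a guardian of mitochondria in the BCL2 family that blocks apoptosis. MCL1 (chr1:150574558-150579610) measured 74.7, 92.9, 83.4 and 55.3 CPM in bone marrow against 413, 535, 260.4 and 318 CPM in lung. All 4 lung samples lay above all 4 bone marrow samples, with lung replicate 3 the lowest of lung. The log2 fold change was -2.32 ± 0.28, with an edgeR adjusted p of 0.101 and a DESeq2 adjusted p of 4.26e-10. SLC30A1, the zinc exporter of the plasma membrane, measured 12, 7.2, 18.3 and 6.71 CPM in bone marrow against 173, 127, 65.6 and 113 CPM in lung. The 2 ranges did not overlap, and the log2 fold change was -3.44 ± 0.46 (DESeq2 adjusted p 4.35e-11). ERRFI1, whose protein blocks the EGF receptor kinase, stood at 33.6, 32.5, 33.4 and 23.7 CPM against 158, 317, 86.6 and 121 CPM. Bone marrow samples were tight and lung samples spread widely, with replicate 2 the highest (log2 fold change -2.47 ± 0.41, DESeq2 adjusted p 3.41e-06).

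Death receptor 6, encoded by TNFRSF21, averaged 12.6 ± 6.74 CPM in bone marrow against 84.9 ± 40.8 CPM in lung. The mesenchymal forkhead factor FOXC2 was low in both, at 0.665 ± 0.33 CPM and 12.6 ± 7.71 CPM. WSB2 (log2 fold change -1.47 ± 0.25), MIDN (-1.96 ± 0.34) and the opioid growth factor receptor gene OGFR (-3.48 ± 0.65) were called with the same direction and without overlap. So were the noncoding host gene MIR663AHG (-3.46 ± 0.49) and ZMYM6NB (-2.06 ± 0.31). ZMYM6NB has a name that ties it to ZMYM6; whether counting used strand is not stated in the labels, so overlapping genes may share reads.

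**Figure D2:**
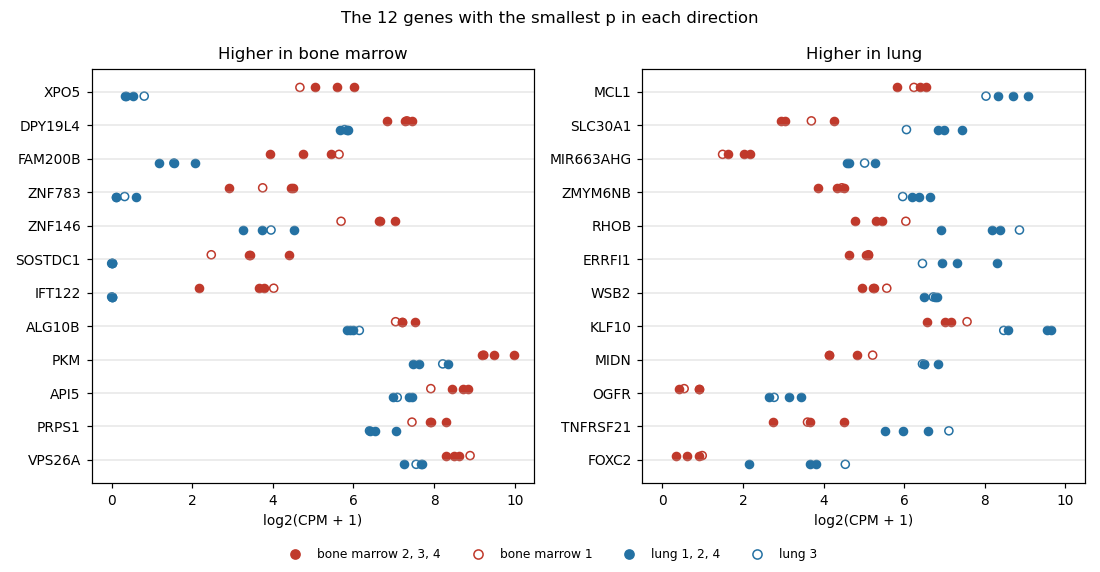
Log2(CPM + 1) in each sample for the 12 genes with the smallest edgeR p in each direction among genes whose average log2 CPM reached 2 and whose sites did not overlap. Open circles are bone marrow replicate 1 and lung replicate 3; XPO5 lies below 1 in every lung sample and above 4 in every bone marrow sample, while MCL1 lies above 8 in lung and below 7 in bone marrow.

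A few genes were counted at 1 site only. With counts in all 4 bone marrow samples and none in lung there were 43 genes, 6 of them with at least 10 counts in each; with counts in all 4 lung samples and none in bone marrow there were 41, of which 1 had at least 10 in each. SOSTDC1, a secreted antagonist of BMP and WNT signals, had 60 to 311 counts per bone marrow sample and averaged 11 ± 6.51 CPM, at least 194-fold higher than the 3 counts over the lung group that a count of 0 allows. These bounds compare counts summed over the samples of a site. IFT122, part of the complex that returns cargo down the cilium, had 51 to 201 counts and was at least 185-fold higher. TEKT2, a tektin of ciliary and flagellar microtubules, had 48 to 205 counts and was at least 134-fold higher. The list of cilium and intraflagellar transport genes did not share such a difference: 34 of 59 were higher in bone marrow. Its median log2 fold change was 0.12 (0.09 without bone marrow replicate 1), its sites overlapped, and IFT122 was its 1 called member. ERCC6-PGBD3, a joined transcript that shares sequence with ERCC6, had 5 to 303 counts and was at least 99.9-fold higher, and at least 18.3-fold without replicate 2, its highest sample. DSCR8 had 17 to 196 counts and was at least 80.7-fold higher, and at least 31.5-fold without bone marrow replicate 1, its highest sample. In lung, the clone-named gene RP11-437B10.1 had 40 to 108 counts and was at least 96.3-fold higher than the floor for bone marrow. SYNM, an intermediate filament protein, had 1 to 71 counts and INPP5J, an inositol phosphatase, 1 to 32, so both rested mainly on lung replicate 2: the bounds of 30.3-fold and 15.5-fold became 3.75-fold and 4.29-fold without it. SNORA19 and RP11-12A2.3 reached at most 13 and 15 counts in a lung sample, and the bound of RP11-12A2.3 went from 8.15-fold to 3.02-fold without replicate 1, that of SNORA19 from 10.1-fold to 6.57-fold without replicate 3. The floors cover counting error only, and a low-input kit can lose molecules before they are sequenced.

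Read as groups, 39 of the 65 function lists had a positive median log2 fold change. The median reached 0.3 in 12 lists and -0.3 or below in 7. Each of those 19 lists kept the direction of its median without bone marrow replicate 1, without lung replicate 3, without both, and under both other scalings. For 18 of the 19 the median lay further from 0 without bone marrow replicate 1. In lists such as cholesterol synthesis and early response that replicate was the bone marrow sample nearest to lung. Leaving out such a sample widens the difference, so this count adds no support. In 8 lists the mean log2(CPM + 1) of the tested members did not overlap between the sites: HIF targets, mitosis, DNA replication, centrosome, chromatin remodelling, nuclear pore and microRNA processing were higher in every bone marrow sample, and the TGF-beta response was higher in every lung sample. The separation in microRNA processing rested on XPO5: without it the mean was 5.68, 5.29, 5.60 and 5.45 in bone marrow against 5.48, 5.01, 5.22 and 5.16 in lung, and the sites overlapped. Of the 65 medians, 11 changed sign without bone marrow replicate 1 and 12 without lung replicate 3. The median of all genes, beside which each list is to be read, was near 0. Likewise, calls in a list are to be read beside 1.5% of all genes called higher in bone marrow and 0.984% in lung. For an unadjusted p below 0.05 these shares were 5.08% and 3.91%. Calls made without bone marrow replicate 1 are to be read beside 2.5% of all genes in bone marrow and 1.46% in lung.

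**Figure D3:**
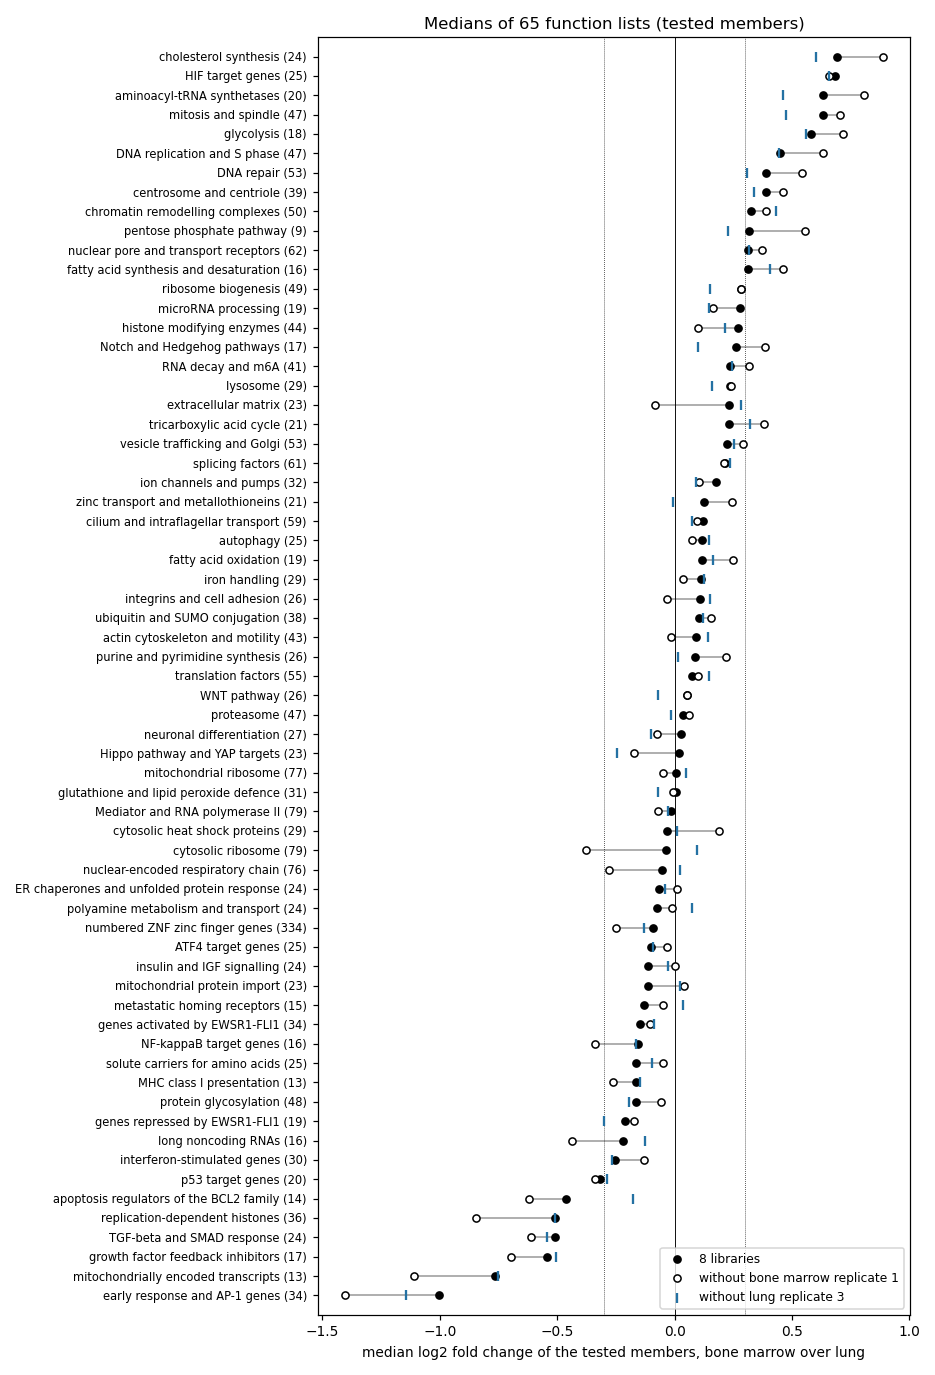
Median log2 fold change (bone marrow over lung) of the tested members of each of the 65 function lists, with the number of tested members in parentheses. Filled points use 8 samples, open points leave out bone marrow replicate 1, blue ticks leave out lung replicate 3 and dotted lines mark 0.3 on either side of 0; cholesterol synthesis (0.69) and early response genes (-1.0) lie at the ends.

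Genes of cell division were higher in bone marrow. Of 47 tested mitosis and spindle genes, 39 were higher in bone marrow, and the median log2 fold change was 0.63 (0.70 without bone marrow replicate 1 and 0.47 without lung replicate 3). At an unadjusted p below 0.05 there were 15 in this direction (31.9%, beside 5.08% of all genes) and none in the other (beside 3.91%). Between sites 8 of the 47 did not overlap, all higher in bone marrow, beside 3.46% of all genes. The mean log2(CPM + 1) of the list was 6.25, 6.56, 6.79 and 6.56 in bone marrow and 5.95, 6.03, 5.33 and 5.73 in lung, with lung replicate 3 the lowest. In bulk RNA, fewer dividing cells and less of this RNA per cell cannot be told apart.

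TOP2A, the topoisomerase that untangles sister chromosomes, measured 204, 221, 415 and 287 CPM in bone marrow against 79.4, 97.3, 108 and 158 CPM in lung. Its samples did not overlap, with a log2 fold change of 1.35 ± 0.30 (DESeq2 adjusted p 0.00738). TPX2, which activates Aurora A kinase on the spindle, measured 175, 201, 256 and 286 against 125, 69.9, 40.1 and 97 CPM, also without overlap (log2 fold change 1.47 ± 0.35, DESeq2 adjusted p 0.0115). RACGAP1, a regulator of the cleavage furrow, averaged 249 ± 31.8 against 95.2 ± 43.3 CPM, and the kinesin KIF15 45.2 ± 24.6 against 4.58 ± 3.26 CPM. KIF15 was the mitotic call that rested on bone marrow replicate 1, its highest sample: the DESeq2 adjusted p was 0.0324 with it and 0.124 without it. Without that sample 9 mitotic genes were called in place of 4, while the share over all genes went from 1.5% to 2.5%. The checkpoint kinase gene TTK went from 0.0636 to 0.00303, AURKA from 0.182 to 0.0168 and the hyaluronan receptor and spindle gene HMMR from 0.199 to 0.0111 in DESeq2 adjusted p. In each of these 3, replicate 1 was the lowest bone marrow sample and lay within the range of lung.

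Promoters of mitotic genes are known for CCAAT boxes, which bind the factor NF-Y. The 250 bases before the start of TOP2A (RefSeq, GRCh38.p14, chr17:40417897-40418146 on the minus strand) are shown because TOP2A had the smallest DESeq2 adjusted p among the called mitotic genes; capitals mark CCAAT or its reverse complement ATTGG, found 4 times.
TOP2A: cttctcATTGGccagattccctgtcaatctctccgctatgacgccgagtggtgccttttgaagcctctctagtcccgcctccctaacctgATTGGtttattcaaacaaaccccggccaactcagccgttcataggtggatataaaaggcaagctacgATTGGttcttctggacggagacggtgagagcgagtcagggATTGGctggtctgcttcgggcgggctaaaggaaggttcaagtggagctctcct
The motif CCAAT, on either strand, was in 26 of the 33 mitosis genes for which the RefSeq table holds exactly 1 window that ends at the gene's outermost start (78.8%), and in 36.9% of the 5566 such windows among all tested genes. Of the 4 called genes 2 had such a window: TOP2A has these letters in it and KIF15 does not. A match is a description of the sequence and not of binding.

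DNA synthesis followed mitosis with a smaller difference. In 36 of 47 tested replication and S phase genes the level was higher in bone marrow (median 0.45, 0.63 without bone marrow replicate 1). RFC1, the large subunit of the clamp loader, measured 44.4, 47.5, 27 and 24.1 CPM in bone marrow against 10.7, 7, 4.42 and 6.29 CPM in lung. It did not overlap, with a log2 fold change of 2.33 ± 0.47 and a DESeq2 adjusted p of 4.09e-05. E2F2, a cell-cycle transcription factor, averaged 13.1 ± 7.31 against 1.88 ± 2 CPM; its DESeq2 adjusted p was 0.0296, and 0.0528 without replicate 1. DNA repair genes were higher in 37 of 53 (median 0.39, 0.54 without that replicate). FANCD2, a Fanconi anaemia protein of crosslink repair, was the called member at 39.4, 54, 138 and 33.7 against 24.8, 8.26, 9.66 and 5.85 CPM (DESeq2 adjusted p 0.00604). Bone marrow replicate 3 was its highest sample. RAD50, of the break-sensing complex, went the other way at 22.5, 3.95, 6.16 and 3.49 against 17.2, 24.4, 20.9 and 20.3 CPM; the lung side was called without replicate 1 alone (DESeq2 adjusted p 0.436 with it and 9.77e-05 without it).

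Replication-dependent histone genes, whose RNAs are made in S phase and mostly lack a poly(A) tail, lay on the other side. Only 10 of the 36 tested of 65 listed in the table were higher in bone marrow (median -0.51, -0.85 without bone marrow replicate 1). One was called: HIST1H3H, at 8.94, 1.83, 8.07 and 9.88 CPM in bone marrow against 31, 19, 36.6 and 24.2 CPM in lung (DESeq2 adjusted p 0.0217). HIST1H4C, the most abundant, ran from 1129.7 to 3957 CPM in bone marrow and from 798 to 2724 CPM in lung, so the sites overlapped. Histone genes are near-identical copies of each other, and reads could be split among them.

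Of the centrosome and centriole genes, 28 of 39 lay on the bone marrow side (median 0.39, 0.46 without replicate 1), with PCM1, the scaffold of centriolar satellites, called at 41.5, 24.3, 52.1 and 71.3 against 18.3, 12.4, 13.5 and 4.09 CPM (DESeq2 adjusted p 0.0128). Chromatin remodelling genes were higher in 36 of 50 (median 0.33). In that list the ISWI ATPase gene SMARCA5 was called on the bone marrow side (113 ± 58.5 against 38.3 ± 9.71 CPM). Among nuclear pore and transport genes 42 of 62 were higher in bone marrow (median 0.31) and 6 were called, all on that side, beside 1.5% of all genes. They include XPO5, NUP85 of the Y complex (77 ± 32.9 against 19 ± 9.7 CPM), the mRNA exporter NXF1 (28.7 ± 7.53 against 3.81 ± 3.38 CPM) and NDC1, which anchors the pore in the envelope (138 ± 55 against 42.1 ± 18.8 CPM). None of these 4 overlapped between sites.

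**Figure D4:**
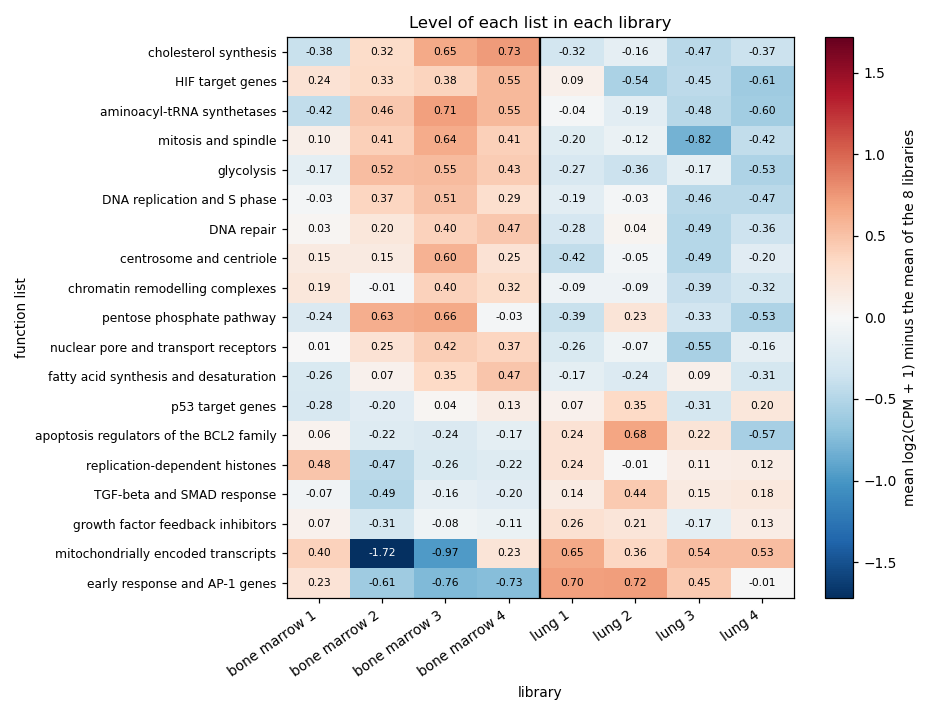
Mean log2(CPM + 1) of the tested members in each sample, minus the mean of the 8 samples, for the 19 lists with a median of at least 0.3 from 0. Red is above and blue below the mean; mitosis is lowest in lung replicate 3 (-0.82), mitochondrially encoded transcripts are lowest in bone marrow replicate 2 (-1.72), and bone marrow replicate 1 is negative for cholesterol synthesis (-0.38) where the other bone marrow samples are positive.

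Hypoxia targets held 5 calls with 8 samples and 5 without bone marrow replicate 1, the latter beside 2.5% of all genes. The 2 sets were not the same, as LOX was called with 8 samples only. Of 25 tested HIF targets, 15 lay on the bone marrow side. The median was 0.68, and 0.66 without replicate 1, and 5 members were called, all in this direction, beside 1.5% of all genes. PDK1, the kinase that shuts pyruvate dehydrogenase, measured 86, 184, 121 and 80.5 CPM in bone marrow against 31.2, 33.6, 16.7 and 40.8 CPM in lung. Every bone marrow sample was above every lung sample (log2 fold change 1.95 ± 0.39, DESeq2 adjusted p 0.000529). BNIP3 and BNIP3L mark mitochondria for removal. BNIP3 measured 202, 374, 359 and 328 against 149, 42.2, 115 and 110.3 CPM and BNIP3L 343, 312, 381 and 327 against 216, 174, 161 and 95.7 CPM, neither with overlap. Their log2 fold changes were 1.60 ± 0.38 and 1.07 ± 0.25, with DESeq2 adjusted p of 0.00767 and 0.0128. The histone demethylase KDM3A stood at 15, 42.1, 7.46 and 37.7 CPM against 3.65, 0.98, 0.167 and 0 CPM (DESeq2 adjusted p 0.00649). LOX, an enzyme that crosslinks collagen and that is also known to be repressed by EWSR1-FLI1, averaged 14.8 ± 2.03 against 2.08 ± 2.43 CPM; its DESeq2 adjusted p was 0.0213, and 0.0576 without replicate 1. The other 10 members were higher in lung, none of them called.

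HIF binds a short core, ACGTG. The 250 bases before the start of BNIP3 (RefSeq, GRCh38.p14, chr10:131981924-131982173 on the minus strand) are shown since BNIP3 was the called HIF target with such a window in the table; capitals mark a run of CACGTG that holds the core on both strands.
BNIP3: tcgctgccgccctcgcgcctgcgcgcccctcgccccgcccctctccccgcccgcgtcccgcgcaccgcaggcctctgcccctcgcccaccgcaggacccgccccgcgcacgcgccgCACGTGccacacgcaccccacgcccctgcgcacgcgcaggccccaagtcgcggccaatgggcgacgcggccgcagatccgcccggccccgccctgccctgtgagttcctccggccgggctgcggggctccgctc
The core was in 8 of 12 HIF targets with such a window (66.7%) and in 25.5% of the 5566 windows.

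Glycolysis, part of which is under HIF control, lay on the same side. Of 18 tested genes, 15 were higher in bone marrow (median 0.58, 0.72 without replicate 1). On that side 8 had an unadjusted p below 0.05, beside 5.08% of all genes. With 8 samples PKM was the called member, beside 1.5% of all genes. Without bone marrow replicate 1 there were 8, beside 2.5% of all genes. ENO1, the enolase, measured 1778, 3448, 3971 and 2089 CPM in bone marrow against 1675, 1572, 939 and 1387 CPM in lung: the sites did not overlap, but replicates 1 and 4 lay close to lung, and the DESeq2 adjusted p was 0.0974 with replicate 1 and 0.00619 without it. ALDOA, the aldolase, measured 429, 944, 931 and 1174 CPM against 459.8, 551, 406 and 449 CPM. There replicate 1 lay inside the lung range, and the DESeq2 adjusted p was 0.157 with it and 1.02e-06 without it. TPI1, PGK1, GAPDH, LDHB and the lactate carrier SLC16A1 likewise passed only without replicate 1, with log2 fold changes over 8 samples between 0.35 (LDHB) and 0.79 (PGK1). The pentose phosphate pathway was higher in 8 of 9 genes (median 0.32), with PRPS1 called and its paralogue PRPS2 at a log2 fold change of -0.07 ± 0.28.

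Mitochondrial energy genes were less uniform. In the tricarboxylic acid cycle 16 of 21 genes were higher in bone marrow (median 0.23), and citrate synthase, CS, was called at 17.8, 51.2, 31.4 and 50.5 CPM against 6.87, 8.47, 7.5 and 0.731 CPM, as was SUCLG2 at 118 ± 39.2 against 48.6 ± 9.81 CPM. Nuclear-encoded respiratory chain genes had a median of -0.05, and 34 of 76 had a positive value and none called. Without replicate 1 the median was -0.28, yet 5 members were then called, all higher in bone marrow, beside 2.5% of all genes. They were ATP5A1, NDUFS1, NDUFV1, UQCRC1 and SDHA, at log2 fold changes of 0.64, 0.73, 1.23, 1.52 and 1.39. NDUFB9, a complex I subunit and 1 of the 10 most abundant genes, shows this dependence: 11363, 4048, 3294 and 2467 CPM in bone marrow, where replicate 1 is far above the rest, and 4468, 4572, 5801 and 4727 CPM in lung. All 13 transcripts encoded by mitochondrial DNA were higher in lung (median -0.76, -1.11 without replicate 1), 3 of them at an unadjusted p below 0.05 and none called. MT-CO2, a subunit of cytochrome oxidase, measured 5609.8, 1008, 1649 and 3760.2 CPM in bone marrow against 4438, 3736, 3961 and 4289 CPM in lung: the lung samples were alike, and the bone marrow samples ranged from below all of lung (replicates 2 and 3) to above it (replicate 1). Reads of mitochondrial ribosomal RNA, 0.0956 to 0.218% in bone marrow and 0.359 to 0.491% in lung, moved in the same direction; their part in this result was not tested.

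Cholesterol synthesis and HIF targets had the highest medians of the 65 lists with all 8 samples. Of 24 tested genes of the pathway 18 were higher in bone marrow (median 0.69, 0.89 without replicate 1), none had an unadjusted p below 0.05 on the lung side, and 3 were called. ACAT2, which joins 2 acetyl groups at the head of the pathway, measured 341, 475, 519 and 502 CPM in bone marrow against 235, 238, 256 and 272 CPM in lung. It had no overlap and a log2 fold change of 0.88 ± 0.19 (DESeq2 adjusted p 0.00617). MSMO1, a sterol demethylase, measured 404, 503, 483 and 454 CPM against 169.6, 308, 252 and 277 CPM (log2 fold change 0.87 ± 0.22, DESeq2 adjusted p 0.0289). MVK, mevalonate kinase, was low, at 1.74, 4.54, 2.26 and 7.75 CPM against 0.0848, 0, 0.0833 and 0.439 CPM (DESeq2 adjusted p 0.0075). HMGCS1, which feeds the rate-limiting reductase, and SQLE, which makes the first oxygenated sterol precursor, passed without replicate 1, with a DESeq2 adjusted p of 0.00574 and 0.000703, against 0.158 and 0.364 with it. SQLE measured 702, 1568, 1578 and 2172 CPM in bone marrow against 759, 909.8, 845 and 1089.9 CPM in lung, so that replicate 1 lay below all lung samples and the other 3 above them. Fatty acid synthesis and desaturation genes were higher in 12 of 16 (median 0.31), with none called over 8 samples. The desaturase gene FADS1 measured 224, 615, 613 and 649.6 CPM against 322, 287, 347 and 347 CPM and had a DESeq2 adjusted p of 0.422 with replicate 1 and 2.1e-07 without it.

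Sterol genes, too, are known for NF-Y boxes beside the sites of the sterol regulator SREBP. The window before MSMO1 (chr4:165327419-165327668 on the plus strand), with CCAAT or ATTGG in capitals, is shown since MSMO1 was the called gene of the pathway with such a window.
MSMO1: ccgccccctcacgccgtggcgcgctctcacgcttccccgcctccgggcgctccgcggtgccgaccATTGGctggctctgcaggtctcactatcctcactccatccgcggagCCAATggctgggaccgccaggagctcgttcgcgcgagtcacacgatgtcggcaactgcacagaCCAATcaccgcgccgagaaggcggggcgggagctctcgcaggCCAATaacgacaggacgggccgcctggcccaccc
CCAAT on either strand was in all 10 cholesterol genes with such a window, beside the 36.9% of all windows given above, and in MSMO1 it occurred 4 times.

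Enzymes that load transfer RNAs with amino acids were higher in bone marrow in nearly every case. Of 20 cytosolic aminoacyl-tRNA synthetases, 19 were higher in bone marrow (median 0.63, 0.81 without replicate 1 and 0.46 without lung replicate 3). The sites overlapped, since bone marrow replicate 1 lay in the lung range. The mean log2(CPM + 1) of the list was 6.13, 7.01, 7.25 and 7.10 in bone marrow and 6.51, 6.36, 6.07 and 5.95 in lung. EPRS, which charges glutamate and proline, was called at 128, 251, 375 and 269 CPM against 128, 58.1, 98.1 and 124 CPM, with replicate 1 just below the highest lung sample (DESeq2 adjusted p 0.0436). Without replicate 1 there were 5 calls, beside 2.5% of all genes. Among them were IARS (252, 593, 748 and 490.4 CPM against 272, 241, 233 and 252 CPM, DESeq2 adjusted p 5.29e-07) and SARS. Translation factors had a median of 0.07, with EIF4G2 called on the bone marrow side (722 ± 273 against 342 ± 69 CPM). Ribosome biogenesis genes had a median of 0.28. Their called member NOLC1, a nucleolar chaperone, measured 97, 102, 96.4 and 99.9 CPM in bone marrow against 16.9, 1.54, 9.58 and 15.4 CPM in lung, without overlap (log2 fold change 3.19 ± 0.63, DESeq2 adjusted p 3.19e-05).

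Ribosomal protein genes themselves had a median of -0.04, and 31 of 79 had a positive value. This value rests on replicate 1: without it 6 were higher and the median was -0.38. The mean log2(CPM + 1) of these genes was 10.43, 9.84, 9.52 and 9.59 in bone marrow and 9.93, 9.81, 10.41 and 9.68 in lung, so that bone marrow replicate 1 and lung replicate 3 were the highest of their groups. RPS2 was the called member, higher in lung (316, 526, 674 and 581 CPM against 982, 1107, 1829 and 894 CPM, DESeq2 adjusted p 0.0268). RPL7, the most abundant, measured 6125 ± 643 against 6285 ± 1278 CPM. In the mitochondrial ribosome the median was 0.01, and 2 members were called in opposite directions: MRPS27 higher in bone marrow (log2 fold change 1.18 ± 0.29) and MRPL51 higher in lung (-0.80 ± 0.17).

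Early response genes stood furthest on the lung side. These are transcription factors and regulators, AP-1 and KLF family members among them, whose RNAs appear within minutes of a growth, mechanical or stress signal, tissue dissociation included, and decay as quickly. Of 34 tested, 26 were higher in lung (median -1.0, -1.41 without bone marrow replicate 1). At an unadjusted p below 0.05 there were 10 on that side, beside 3.91% of all genes, and 1 on the other. In all 9 were called, each higher in lung, beside 0.984% of all genes. The mean log2(CPM + 1) was 4.88, 4.04, 3.89 and 3.91 in bone marrow and 5.35, 5.37, 5.10 and 4.64 in lung; replicate 1 was the highest bone marrow sample and above lung replicate 4. The labels do not say how long dissociation and sorting of each organ took, so handling and site cannot be told apart.

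KLF10, induced early by TGF-beta, measured 188, 129, 142 and 93 CPM in bone marrow against 793, 745, 354 and 379 CPM in lung. Its groups did not overlap, and lung replicates 1 and 2 were about the same and well above 3 and 4 (log2 fold change -2.04 ± 0.35, DESeq2 adjusted p 1.65e-05). RHOB, a short-lived small GTPase (chr2:20447074-20449440), measured 64.8, 38.2, 26.4 and 42.6 CPM against 332, 287, 464 and 119.7 CPM, with every lung sample higher (log2 fold change -2.81 ± 0.44, DESeq2 adjusted p 1.37e-07). KLF2 was low, at 1.59, 0.531, 0.41 and 0.71 CPM against 5.09, 7.84, 10.7 and 6.87 CPM, and KLF6 was even within each site, at 121, 102, 103 and 109 CPM against 269, 212, 205 and 179 CPM (DESeq2 adjusted p 0.000348 and 0.000436). The stress factor ATF3 measured 40.6, 16.8, 39.9 and 10.8 CPM in bone marrow against 79.3, 59, 135 and 109.8 CPM in lung. FOSL2, IER5, BTG1 and MCL1 complete the 9. Without bone marrow replicate 1 there were 13 calls, beside 1.46% of all genes, and the AP-1 genes JUN, JUNB, JUND and FOSL1 were among those gained. JUN stood at 119, 28.4, 16.3 and 19.2 CPM in bone marrow, with replicate 1 in the lung range, and at 147, 74.5, 90.2 and 45.6 CPM in lung (DESeq2 adjusted p 0.598 with it and 0.000923 without it).

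Many early response promoters hold the cyclic AMP response element core TGACG, which ATF and CREB factors bind. The window before RHOB (chr2:20446824-20447073 on the plus strand) is shown for the called gene with the smallest DESeq2 adjusted p that has such a window and the core; capitals mark CGTCA, its reverse complement.
RHOB: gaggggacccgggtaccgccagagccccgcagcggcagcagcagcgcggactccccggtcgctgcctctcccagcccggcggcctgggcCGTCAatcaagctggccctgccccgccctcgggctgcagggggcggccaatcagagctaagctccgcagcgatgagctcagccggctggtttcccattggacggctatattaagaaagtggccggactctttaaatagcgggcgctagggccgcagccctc
TGACG on either strand was in 14 of 18 early response genes with such a window (77.8%) and in 32.4% of the 5566 windows. Of the 9 called genes 6 had such a window. The core was in 3 of them, and KLF2, KLF6 and IER5 do not have these letters in their windows.

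**Figure D5:**
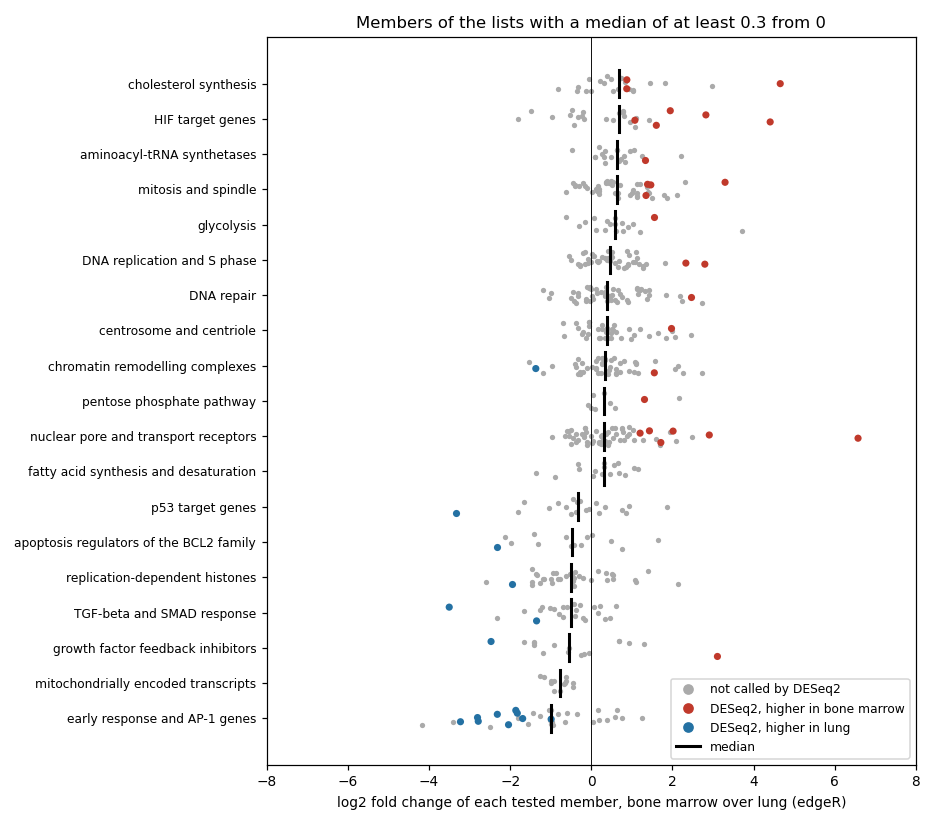
Log2 fold change of every tested member (bone marrow over lung, edgeR) of the 19 lists with a median of at least 0.3 from 0; points are spread vertically at random within a list and the bar is the median. Coloured points were called by DESeq2: the early response list holds 9 blue points and no red one, the HIF list 5 red points, and most members of every list were not called.

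Further signalling lists lay on the lung side. Members called higher in lung were 2 of 24 in the TGF-beta list and 1 of 17 among feedback inhibitors. They were 1 of 14 in the BCL2 family and 1 of 20 among p53 targets, beside 0.984% of all genes. TGF-beta and SMAD response genes were higher in lung in 18 of 24 (median -0.51, -0.61 without replicate 1). SKIL, a SMAD corepressor that the pathway induces, measured 191, 163, 304 and 187 CPM against 489, 772, 301 and 591 CPM; bone marrow replicate 3 reached just above lung replicate 3 (DESeq2 adjusted p 0.0108). The receptor TGFBR2 was near the limit of counting in bone marrow, at 0.53, 1.3, 0.205 and 0.71 CPM, and stood at 0.933, 21.9, 4.25 and 4.46 CPM in lung, so that replicate 2 sets its mean (DESeq2 adjusted p 0.034, and 0.0835 without bone marrow replicate 1). Growth factor feedback inhibitors had a median of -0.54. ERRFI1 was called on the lung side and the ubiquitin ligase CBLB, which turns receptors down, on the bone marrow side at 8.86, 26.6, 5.47 and 18.8 CPM against 1.36, 2.17, 1.75 and 1.61 CPM (DESeq2 adjusted p 0.000285). The BCL2 family had a median of -0.46 (-0.18 without lung replicate 3), and MCL1 was its called member. Among p53 targets 13 of 20 were higher in lung (median -0.32). GADD45A, a growth arrest gene also induced by other stresses, measured 9.47, 2.36, 3.49 and 7.29 CPM in bone marrow against 82.8, 11.9, 65.7 and 68.2 CPM in lung, where replicate 2 was the lowest (log2 fold change -3.34 ± 0.71, DESeq2 adjusted p 6.65e-05).

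Hippo pathway genes had a median of 0.02 and 2 calls on the lung side, the adaptor SAV1 (16.8 ± 3.69 against 46.6 ± 15.9 CPM) and the YAP partner TEAD1 (13.4 ± 3.77 against 28.1 ± 3.09 CPM). ATF4, the transcription factor of the integrated stress response, was itself called higher in lung at 43.7, 54.6, 36.3 and 19.9 CPM against 73.3, 74.2, 163 and 97.5 CPM (DESeq2 adjusted p 0.0406), while its targets as a list had a median of -0.10. HSPA1B, an inducible heat shock protein with the near-identical copy HSPA1A, was higher in lung (30.2 ± 3.8 against 74.8 ± 13.9 CPM), whereas the endoplasmic reticulum chaperone HSPA5 was higher in bone marrow (2348, 2081, 1795 and 2156 CPM against 1337, 876, 725 and 1155 CPM, without overlap, DESeq2 adjusted p 0.00622). ISG15 was the called interferon-stimulated gene, higher in lung (87.6 ± 17.7 against 203 ± 68.8 CPM), in a list with a median of -0.25.

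The metal handling lists had medians of 0.11 for iron, with calls in both directions, and 0.12 for zinc (-0.01 without lung replicate 3), with 2 calls, both on the lung side. For iron, the transferrin receptor TFRC measured 446, 523, 850.3 and 509 CPM in bone marrow against 110.4, 76.2, 251 and 206 CPM in lung, with no overlap (log2 fold change 1.85 ± 0.40, DESeq2 adjusted p 0.00145). The iron-sulphur cluster genes ISCU (333 ± 9.56 against 509.8 ± 41.2 CPM) and GLRX5 (12.7 ± 4.89 against 40.5 ± 9.92 CPM) were called in the other direction. For zinc, SLC30A1 and the metallothionein MT1X (32.8, 39.7, 19.6 and 34.4 CPM against 90.4, 86.4, 53.9 and 129 CPM) were both higher in lung and without overlap; both are induced by zinc through the factor MTF1. The series title names polyamines and ferroptosis. Polyamine genes had a median of -0.07, and 10 of 24 had a positive value. ODC1, the first enzyme of the pathway, was the called member, at 85.4, 158, 126 and 162 CPM in bone marrow against 238, 214, 404 and 263 CPM in lung (log2 fold change -1.07 ± 0.29, DESeq2 adjusted p 0.0447, edgeR adjusted p 0.278). Glutathione and lipid peroxide defence genes had a median of 0.00, and TXNRD1, thioredoxin reductase, was called on the bone marrow side (112, 246, 167 and 229.9 CPM against 58.1, 79.9, 56.2 and 103 CPM, DESeq2 adjusted p 0.0128).

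The targets of the fusion held calls in the repressed list alone, to be read beside 1.5% of all genes called higher in bone marrow and 0.984% in lung. Genes activated by EWSR1-FLI1 had a median of -0.15, and 15 of 34 had a positive value and none called. Those repressed by the fusion, 19 tested, had a median of -0.21, with 2 called higher in bone marrow and 1 in lung. The 2 were LOX and the matricellular gene THBS2 (3.03, 23.3, 1.03 and 13.6 CPM against 0.254, 0.42, 0.417 and 0 CPM). TGFBR2 was the call in lung. Extracellular matrix genes had a median of 0.23, and -0.08 without bone marrow replicate 1. Integrins and adhesion genes stood at 0.11 with none called. In the actin list CTTN, cortactin, and ACTR2, of the Arp2/3 complex, were called on the bone marrow side and RHOB, given above, on the lung side. CTTN measured 230.4, 207, 239 and 192 CPM against 124, 102, 119 and 109 CPM, with a spread within each site that was small beside the difference (log2 fold change 0.93 ± 0.18, DESeq2 adjusted p 0.000111). MET, the receptor of hepatocyte growth factor, was called in the homing list at 6.89, 19.8, 11.8 and 0.194 CPM against 0.594, 0.77, 0.0833 and 0 CPM; replicate 4 of bone marrow lay inside the lung range (DESeq2 adjusted p 0.0199).

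RNA processing and secretion lists held calls in both directions. Among splicing factors (median 0.22) the U2 components SF3B1 (266, 545, 694 and 559.8 CPM against 272, 215, 154 and 124 CPM) and SF3B3 were higher in bone marrow and DDX5 (67.6, 107, 102 and 79.5 CPM against 169, 196, 155 and 216 CPM) and HNRNPD higher in lung. Protein glycosylation genes had a median of -0.17 with DDOST, of the oligosaccharide transferase, higher in bone marrow (403 ± 65 against 193 ± 46.2 CPM). On the lung side were MAN1A2, a Golgi mannosidase (23.8 ± 6.48 against 74.5 ± 16.7 CPM), DPM3, and GANAB, a glucosidase. GANAB had counts in 1 bone marrow sample (replicate 2, 1.18 CPM) and stood at 5.43, 7.84, 26 and 28.5 CPM in lung. Numbered ZNF genes, 334 of them, had a median of -0.09 (-0.25 without replicate 1), with 6 called in bone marrow and 2 in lung, beside 1.5% and 0.984% of all genes. The proteasome (0.03), Mediator and RNA polymerase II (-0.01) and neuronal differentiation (0.03) lists had medians near 0. Of these, 1 gene was called, CCNT1, the cyclin that helps release paused polymerase, higher in lung (21.2 ± 10.9 against 66.5 ± 22.5 CPM).

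Among the most abundant genes no difference was called. RPL7, H3F3B, PTMA, RPS14, UTS2, NDUFB9, RAN, HMGN2, HMGB1 and MALAT1 led the table. Their log2 fold changes ran from -0.33 (UTS2, the vasoactive peptide urotensin) to 0.46 (HMGN2, a nucleosome binding protein). UTS2 varied widely among bone marrow samples (8211, 6497, 2824 and 759.9 CPM) and less in lung (3839, 6361, 6087 and 6703 CPM). The 24 commonly used reference genes had a median of -0.02, and included TFRC, which was called, and GAPDH averaged 1058 ± 169 CPM in bone marrow against 629.9 ± 128 CPM in lung without overlap (DESeq2 adjusted p 0.0772).

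Markers of the tumour line were present in every sample as a sum, though not each marker was. The 9 Ewing sarcoma markers summed to 1480 to 1820 CPM in bone marrow samples and 1760 to 2160 CPM in lung samples, led by STEAP1. GLI1 was at 0 CPM in bone marrow replicates 2, 3 and 4 and in lung replicates 1 and 4. LIPI ran from 0.07 to 218 CPM in lung, and PAPPA was at 0.354 and 0.547 CPM in bone marrow replicates 2 and 3. Of all reads, 7.52 ± 0.191% of bone marrow reads and 7.36 ± 0.496% of lung reads were assigned to mouse (SD, n = 4 each). Leukocyte markers (11) summed to 10.6 to 240 CPM in bone marrow and 3.95 to 44.4 CPM in lung, with LCP1 at 40.8, 48.6, 229.5 and 8.07 CPM and 5.26, 7, 0.5 and 0 CPM and CD68, a lysosomal macrophage protein, at 0.454, 0, 0 and 0 CPM and 20.9, 7.77, 1 and 2.27 CPM; CD68 was called higher in lung. Red cell markers (8) summed to 16.9 to 107 CPM and 3.66 to 171 CPM with ALAS2 at 0 in every sample. Lung epithelial markers (8) summed to 21.2 to 174 CPM in bone marrow and 15.6 to 129 CPM in lung, with SCGB1A1 at 0, and KRT8, called on the bone marrow side, at 10.5, 2.3, 87.8 and 0.0646 CPM against 0.339, 0.28, 0.833 and 0.658 CPM, so that replicate 3 sets its mean. Osteoblast and stromal markers (9) summed to 105 to 353 CPM and 159 to 419 CPM with BGLAP at 0, endothelial markers (8) to 23 to 39.7 CPM and 27.6 to 30.8 CPM with VWF and ESAM at 0, and adipocyte markers (5) to 3.03 to 24.5 CPM and 1.53 to 22.9 CPM. The summed ranges of the 2 sites overlapped for each of these cell type lists. Nuclear RNAs that mark low-quality samples were higher in lung in all 3 tested members (MALAT1, NEAT1 and MEG3, median -0.56, -0.73 without bone marrow replicate 1), none called. Their mean log2(CPM + 1) was 6.74, 6.62, 6.46 and 6.70 in bone marrow against 6.93, 6.86, 7.63 and 7.47 in lung, without overlap. The part of these markers in the results above was not tested.

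Gene class and position showed small shifts. Long noncoding RNAs (299 tested) had a median log2 fold change of -0.25 and 65.9% were higher in lung, against 48.1% of the 10443 protein-coding genes, whose median was 0.03. The 21 snoRNA genes had a median of -0.50. Without bone marrow replicate 1 these medians were -0.52 for long noncoding RNAs, 0.02 for protein-coding genes and -1.07 for snoRNA genes. By GC content of the longest transcript, the median went from 0.14 in the lowest of 5 equal bins of genes to -0.16 in the highest. By chromosome the median ran from -0.23 (chromosome 16, 460 genes, median GC 52.7%) and -0.17 (chromosome 19, 675 genes, 56.7%) to 0.14 (chromosome 13, 225 genes, 41.9%). By abundance it ran from -0.23 in the lowest such bin to 0.13 in the next to highest. The part of GC content and abundance in the list medians was not tested.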

How the data were processed

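RNA of TC71 cells sorted from mouse bone marrow, lung or a primary tumour was extracted with RNeasy columns and made into libraries with a template-switching low-input kit, per the labels' protocols, with a read length of 151 bases per the file headers. The submitters' processing notes name Trim Galore, Salmon and the build hg38, without versions; annotation and strand setting: not given in the sources used here. Values in the main deposited table are the authors' estimated counts for each gene, which were rounded to whole numbers here. A second deposited table gives, per sample, the percent of reads assigned to each organism and, as a fraction of reads, classes such as protein coding and not aligned, which are printed as percentages. Vector reporter and selection genes, 0.00121 to 0.00806% of counts, were left out, and 2 gene symbols occurred more than once.

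Genes were filtered with edgeR's filterByExpr (minimum count 10, 12601 of 34922 kept), scaled by TMM and tested with edgeR 4.0.16 (quasi-likelihood, R 4.3.3) over 4 bone marrow and 4 lung libraries. SE is the log2 fold change divided by the square root of F. List means use log2(CPM + 1). DESeq2 1.42.0, limma 3.58.1 (voom with quality weights), other scalings and filters, all 9 libraries, the replicate number as a block and leaving out libraries were alternatives. No 2 libraries agreed within sampling noise (lowest chi-square per degree of freedom 78.7 over 28 pairs). Same-numbered libraries of the 2 sites did not deviate together. Promoter windows were used where they end at the gene's outermost RefSeq start. Coordinates and windows come from RefSeq (GRCh38.p14), to which 10830 of the tested genes (85.9%) matched, and GC content from GENCODE transcripts (11297 genes, 89.7%). The scripts were tested on simulated data.

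Named genes were: those called by edgeR; for each direction, the 12 genes of smallest p whose average log2 CPM reached 2, with no overlap between sites and a proper symbol; up to 4 members per list called by DESeq2, or else the most abundant; the 10 most abundant genes; up to 5 genes per site without counts at the other; marker and reference genes; and list members whose call rests on bone marrow replicate 1. The comparison, gene lists and rules were chosen with earlier results of these data known. A gene that these rules would name is not reported here.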

Additional observations from a re-analysis of the deposited data

Results flagged for a closer look

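In 13 of 214 groups of 4 libraries, 1 library lay further from the rest than Dixon's critical value of 0.829 of the group's range, where chance gives about 1 in 20, or 10.7. Bone marrow replicate 1 was the lowest of its group in mean log2(CPM + 1) of glycolysis (7.0), lysosome (4.87) and protein glycosylation (4.64), and the highest for early response genes (4.88) and for reads assigned to yeast (1.04%). Bone marrow replicate 3 was the lowest for extracellular matrix genes (2.65) and the highest for reads not aligned (20.3%). Bone marrow replicate 4 was the lowest for ERRFI1 (23.7 CPM) and the highest for ribosomal RNA reads (0.000388%). Bone marrow replicates 1, 2 and 3 had 0% ribosomal RNA reads, so any value above 0 in replicate 4 would have passed. In lung, replicate 1 was the highest for MIDN (113 CPM), replicate 2 for TGF-beta response genes (4.54), and replicate 3 for nuclear-encoded respiratory chain genes (8.92) and mouse reads (8.09%).

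The vector reporter and selection genes, which no comparison used, had counts in every library, at most 0.00806% of all counts (bone marrow replicate 1).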

How the results depend on the processing

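With limma voom 7 genes were called and with DESeq2 303. The number of genes that edgeR called was 3 with a filter of at least 5 CPM in 4 libraries, 0 without bone marrow replicate 1 and lung replicate 3 together, and between 0 and 4 when 1 library was left out. Without lung replicate 3 the 4 were XPO5, MCL1, TNFRSF12A and LINC01446. XPO5 kept its direction throughout; its edgeR adjusted p ran from 0.0854 to 0.207 when any single library other than lung replicate 3 was left out and was 0.13 without both libraries. Genes at an unadjusted p below 0.05 numbered 2207 without a filter (1361 higher in bone marrow, 846 in lung), 1742 with all 9 libraries (1080 higher in bone marrow) and, higher in bone marrow, 1065 with voom. Genes without overlap numbered 284 on the lung side with the stricter filter and, with fewer samples to separate, 970 on the bone marrow side and 1036 on the lung side without bone marrow replicate 1. DESeq2 without bone marrow replicate 1 called 286 higher in bone marrow. The leave-out of both libraries and of each under DESeq2 were chosen after seeing the data. The site differences in the share of the 100 most abundant genes (0.154 percentage points) and in yeast reads (0.0325) turned to -1.52 and -0.03 without bone marrow replicate 1; the cause was not tested. Of 910 list medians recomputed, 871 moved by less than the spread and 39 by more.

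With the replicate number as a block edgeR called 0 genes, with 961 at an unadjusted p below 0.05 (610 higher in bone marrow, 351 in lung), and XPO5 had an edgeR adjusted p of 0.570. The correlations of same-numbered libraries were 0.0077, 0.019, -0.052 and -0.040, and no library correlated best with its own number, so the numbers were not taken as pairs.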
